A study of Sus scrofa with 2 samples.

Results

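Type B intercalated cell nuclei of pig renal cortex were taken as the barcodes that carried SLC26A4, the gene of the apical chloride/bicarbonate exchanger pendrin, at 5 or more UMIs (unique molecular identifiers, each a counted RNA molecule) per 10000 and with at least 2 UMIs. Barcodes had to hold 500 to 6000 detected genes, with SLC8A1 under 50, LRP2 and CUBN together under 30 and SLC12A1 under 20 UMIs per 10000, which left out connecting tubule, proximal tubule and thick ascending limb nuclei. This rule found 140 nuclei of 12955. The unperfused library gave 95 of 7035 (1.35%, 95% exact binomial interval 1.09 to 1.65) and the perfused library 45 of 5920 (0.760%, 0.555 to 1.02). These intervals cover the counting of nuclei within a library only, and 1 library of each kind cannot show a difference between conditions.

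The study perfused pig kidneys outside the body at a pressure that raises glomerular filtration, to ask which mechanosensitive genes respond, and sequenced RNA of single nuclei from 1 unperfused and 1 perfused piece of renal cortex. Kidneys came from a slaughterhouse, were flushed with heparinised buffer and stored at 4 °C for about 2 h. The unperfused cortex was taken before perfusion, and the perfused cortex 120 min after the start of perfusion at 100 mmHg and 37 °C with a balanced salt solution that held no albumin or red cells. Both pieces went through the same steps up to the cold storage. Breed, age and sex are not given in the sources used here, nor is whether both pieces came from the same animal, and perfusion, time since slaughter and animal cannot be told apart. With 1 library per condition no difference between conditions has a replicate check, nuclei are not replicates, and no p-value is given. Every interval below is a 95% interval that covers counting error only.

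Intercalated cells are the acid-base cells of the connecting tubule and collecting duct, where they lie among principal cells, which reabsorb sodium and water. Type A cells secrete acid through an apical vacuolar proton pump and return bicarbonate to the blood through the SLC4A1 exchanger. Type B cells do the reverse: pendrin secretes bicarbonate into the tubule in exchange for chloride, while the proton pump lies on the basolateral side together with the SLC4A9 anion exchanger.

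The type B nuclei were deep for these libraries. The unperfused members held 794 to 16668 UMIs with a median of 6327, against 4001 for all unperfused nuclei, and the perfused members 1704 to 15265 with a median of 8434, against 4701. Summed, the unperfused members gave 623332 of 34415254 UMIs and the perfused members 391094 of 35525592. CPM is a gene's UMIs scaled to a total of 1000000. A gene seen with 0 UMIs in a sum could still be present at up to 4.81 CPM (unperfused) or 7.67 CPM (perfused). This is the level of 3 UMIs, the one-sided 95% limit of a count of 0. The two-sided limits are 5.92 and 9.43 CPM. The libraries shared 14 barcodes, none of them of a type B nucleus.

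SLC26A4 (ENSSSCG00000028969) chose the nuclei, and its level is given only as a description. It stood at a median of 26.0 UMIs per 10000 in the unperfused members, with a highest value of 137, and at 21.3 in the perfused members, with a highest value of 93.2. The lowest members stood at 5.01 in both libraries, and the nuclei just outside at 4.95 and 4.96. There were 13 unperfused and 9 perfused nuclei with at least 2 UMIs but under 5 per 10000, and 18 and 11 members lay between 5 and 10. The other limits removed 5 unperfused and 3 perfused nuclei. Summed over members, SLC26A4 stood at 3207 CPM (3068 to 3351) before and 3148 CPM (2974 to 3328) after perfusion.

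The other markers of the cell type, which the rule did not use, were present in most of these nuclei. SLC4A9 had a UMI in 90.5% of unperfused and 95.6% of perfused members, against 1.76% and 1.44% of proximal tubule nuclei, whose median depths were 5532 and 6953 UMIs. ATP6V1C2, the C2 subunit of the proton pump, was found in 92.6% and 97.8% of members, against 2.84% and 2.09% of proximal tubule nuclei. ATP6V0D2, the pump's d2 subunit, was found in 50.5% and 75.6%, against 8.97% and 6.64%. All 4 markers were seen together in 47 of 95 and 34 of 45 members, and 3 of them in 39 and 9. These 3 genes mark intercalated cells but do not by themselves tell type B from type A: in nuclei chosen on the type A gene SLC4A1, SLC4A9 was found in 67.4% and 88.2%, ATP6V1C2 in 95.7% and 100% and ATP6V0D2 in 89.1% and 82.4%. The near absence of type A genes, given next, bears on that. Only 7 unperfused members and 1 perfused member held neither SLC4A9 nor ATP6V1C2. The 7 had a median of 3600 UMIs and none of INSRR, a receptor present in 74 of the other 88. Their principal cell markers summed to 3279 CPM against 232 CPM in the other 88 and their stromal markers to 2239 against 127 CPM.

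**Figure D1:**
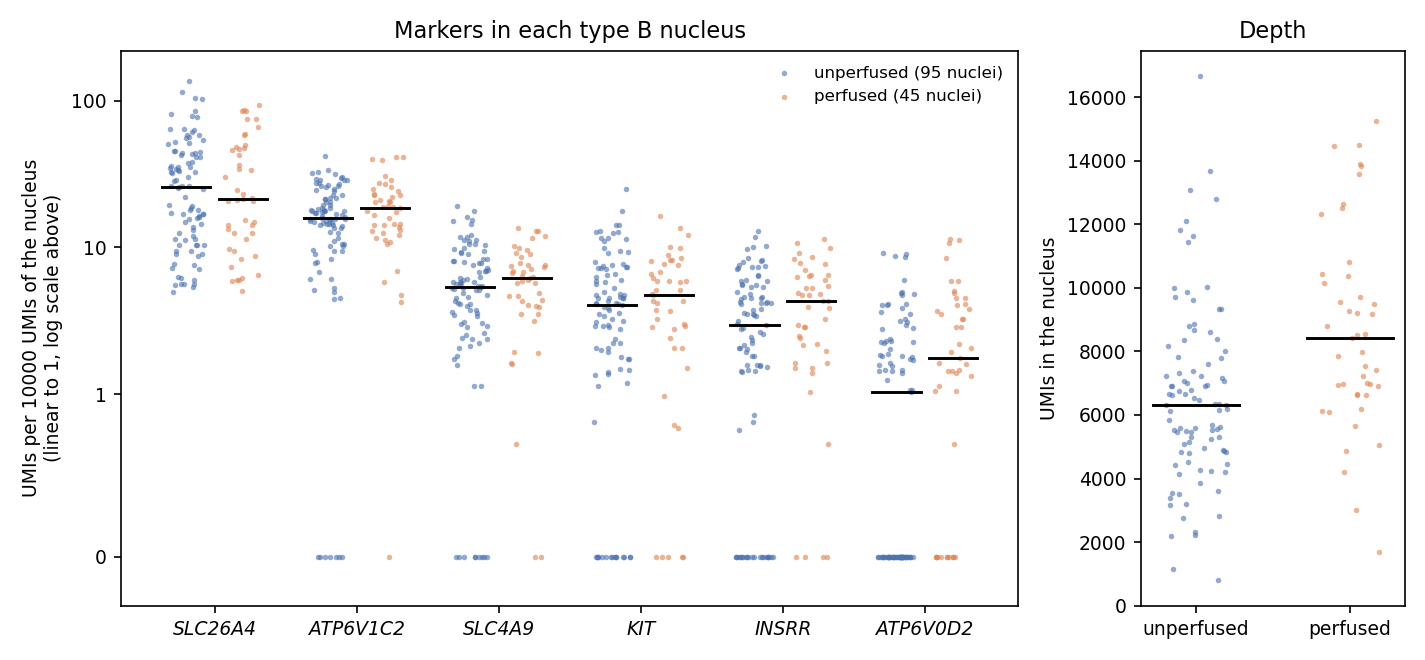
UMIs per 10000 (symmetric log axis) of SLC26A4, ATP6V1C2, SLC4A9, KIT, INSRR and ATP6V0D2 in each of the 95 unperfused and 45 perfused type B nuclei, with the median of each library as a line, beside the UMIs per nucleus. The markers that did not choose the nuclei lie above 0 in most of them in both libraries, and ATP6V0D2 does so in 48 unperfused and 34 perfused nuclei.

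Of the genes that mark type A cells, SLC4A1, AQP6 and DMRT2 were close to absent, while KIT, a receptor tyrosine kinase gene, was not. SLC4A1 had a UMI in 3 unperfused members and 0 perfused members. AQP6 was found in 1 and 0 members, against 14 of 46 and 7 of 17 SLC4A1-chosen nuclei, and DMRT2 in 2 and 0 members, against 22 and 8 of those nuclei. CLNK had 4 and 3 UMIs in the members, 6.42 and 7.67 CPM, and 0 and 3 UMIs in SLC4A1-chosen nuclei, the latter 28.0 CPM from 1 nucleus. KIT was found in 84.2% and 88.9% of members, at 472 CPM (419 to 529) and 509 CPM (441 to 585), against 6.54% and 4.61% of proximal tubule nuclei. KIT was therefore not a gene of type A cells alone in these data.

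RNA of other cell types was low but not absent. The rule capped SLC8A1, LRP2, CUBN and SLC12A1, so that the sums for the connecting tubule, proximal tubule and thick ascending limb were held down in part by the choice of nuclei. The 6 proximal tubule markers summed to 340 CPM (unperfused) and 143 CPM (perfused), with CUBN (114 CPM) and LRP2 (63.9 CPM) the most abundant. The 4 thick ascending limb markers summed to 245 and 107 CPM, led by UMOD, and the 9 principal cell markers to 355 and 258 CPM, led by HSD11B2 and GATA3. Without the members that held neither SLC4A9 nor ATP6V1C2, the principal cell markers stood at 232 and 257 CPM and the stromal markers at 127 and 51.4 CPM. The turned direction of the principal cell sum rests on 1 perfused member, which held all 25 perfused UMIs of SCNN1G (63.9 CPM over all perfused members). The 4 endothelial markers summed to 361 and 263 CPM, led by EMCN and PECAM1, the 5 stromal markers to 212 and 51.1 CPM, led by FHL2 and PDGFRB, and the 4 connecting tubule markers to 144 and 69.0 CPM, almost all of it SLC8A1. The 4 immune markers summed to 12.8 and 23.0 CPM, the 3 distal convoluted tubule markers to 8.02 CPM and 0 UMIs, and the 3 podocyte markers measured to 9.63 CPM and 0 UMIs. TRPV5, CLDN16, CD3E and CD163 stood at 0 UMIs in both libraries, while SLC12A3 and NPHS1 had 2 and 1 UMIs in unperfused members and 0 in perfused ones. Free RNA, estimated from LRP2, CUBN, SLC12A1 and UMOD in the members relative to all nuclei of the library, came to 7.83% (unperfused) and 3.10% (perfused) of the members' UMIs, an estimate that rests partly on genes the rule capped. With this share subtracted, the medians of perfused over unperfused ratios given below became -3.85 for mitochondrial, -1.17 for ribosomal, -0.60 for heat shock and -0.31 for MRTF-SRF genes. Its part in other differences was not tested.

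Members were also split at 10 UMIs of SLC26A4 per 10000, as a description. SLC4A9 stood at 547 CPM in unperfused members under 10 UMIs of SLC26A4 per 10000 and at 586 CPM in those above, and at 681 and 603 CPM in the perfused members. INSRR stood at 249 and 366 CPM in these unperfused members, and at 454 and 428 CPM in the perfused ones, with a UMI in 10 of 18 and 64 of 77 unperfused members. The homeobox gene HMX2 was higher in the members above 10 in both libraries, at 173 against 28.8 CPM and at 116 against 56.7 CPM. UMOD, the uromodulin gene of the thick ascending limb, was lower in them, at 100 against 422 CPM and at 45.6 against 94.5 CPM. SLC12A1 and LRP2, which the rule capped, were lower in them only in the unperfused library. SLC12A1 stood at 50.1 against 278 CPM and, perfused, at 56.1 against 28.4 CPM. LRP2 stood at 59.7 against 144 CPM and, perfused, at 66.6 against 56.7 CPM.

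Beside all other nuclei of the same library, 15 genes set the type B nuclei most apart, among them KAZN, UNC13C, CHL1 and NYAP2. They are described with no test, since the nuclei were chosen on expression. KAZN, which encodes kazrin, a protein of cell junctions, stood at 15603 CPM against 467 CPM in other unperfused nuclei and 22867 against 423 CPM in perfused ones. It had a UMI in 91 of 95 and 45 of 45 members, but also in 37.9% and 41.6% of proximal tubule nuclei, at 158 and 140 CPM. UNC13C, a gene of synaptic vesicle priming, stood at 3024 against 54.0 CPM and 3306 against 39.1 CPM. CHL1, a cell adhesion molecule, stood at 927 and 785 CPM in type B nuclei, log2 ratios of 6.40 (6.20 to 6.59) and 6.67 (6.42 to 6.91) over all other nuclei.

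Several of the 15 were near 0 over the remaining nuclei as a whole. NYAP2, an adaptor of phosphoinositide 3-kinase signalling, stood at 358 CPM (312 to 408) and 486 CPM (419 to 560) in type B nuclei and at 3.77 and 3.14 CPM elsewhere, log2 ratios of 6.57 and 7.27. TLDC2 stood at 456 and 414 CPM against 6.24 and 3.61 CPM. The potassium channel gene KCNK2 stood at 295 and 136 CPM against 5.02 and 3.08 CPM, PLET1 at 237 and 210 CPM against 6.53 and 2.36 CPM, and the calcium channel subunit gene CACNA2D3 at 613 and 816 CPM against 20.4 and 13.7 CPM. HMX2 stood at 149 and 99.7 CPM against 2.04 and 0.973 CPM, in 37.9% and 42.2% of members against 0.541% and 0% of proximal tubule nuclei. PPFIA4, SPSB4 and 2 genes without a symbol completed the 15, with SLC26A4 itself and INSRR.

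Across 10 marker-defined classes of nuclei, the genes most like SLC26A4 were ordered by the lower of their 2 values of r, and HMX2 came first. Its Pearson's r of log2(CPM + 10) was 0.986 before and 0.995 after perfusion. PHLDA1 (0.978 and 0.975), PLET1 (0.963 and 0.956), TLDC2 (0.951 and 0.986) and BDNF (0.949 and 0.996), the gene of a neurotrophin, followed. The remaining 5 of the 10 genes had no symbol. The 10 points come from the same library and are led by the type B nuclei, so r describes only that these genes were high in that class. BDNF itself was rare, at 22.5 and 63.9 CPM, as was PHLDA1, at 25.7 and 23.0 CPM.

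Against the other intercalated type, the type B nuclei differed past 2-fold in SLC26A7, CA12, the potassium channel KCNMA1 and the adhesion receptors ADGRF5 and ADGRF1. Nuclei with 5 or more UMIs per 10000 of the 5 type A markers together numbered 458 and 286. Of 9829 genes, 267 (2.72%) were higher and 739 (7.52%) lower in type B nuclei past 2-fold in both libraries. KIT brought most of these nuclei in: only 47.6% and 32.5% of them held an SLC4A1 UMI, and their stromal markers summed to 354 and 767 CPM. The widest gaps to this group were UNC13C (log2 ratios of 5.05 and 7.25), CHL1, KAZN, NYAP2, TLDC2, KCNK2, ENPP2, PLET1, INSRR and FBXL7 on the higher side. On the lower side were SLC26A7 (-6.63 and -8.95), ADGRF5, BCAT1, MYOM1, MAP3K15, SNTG1, STK39, ADGRF1, KCNJ3 and CCBE1. Of its proton pump genes 0 of 11 (V1 sector) were called, and of 8 (V0 sector) 0 were higher and 1, ATP6V0D2, lower. Nuclei chosen on SLC4A1 alone numbered only 46 and 17, but their stromal markers summed to 32.3 and 56.1 CPM, and SLC26A7 was found in 45 of 46 and 17 of 17. The values that follow are against these SLC4A1-chosen nuclei, where 261 of 4771 genes (5.47%) were higher and 195 (4.09%) lower in type B nuclei past 2-fold in both libraries.

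**Figure D2:**
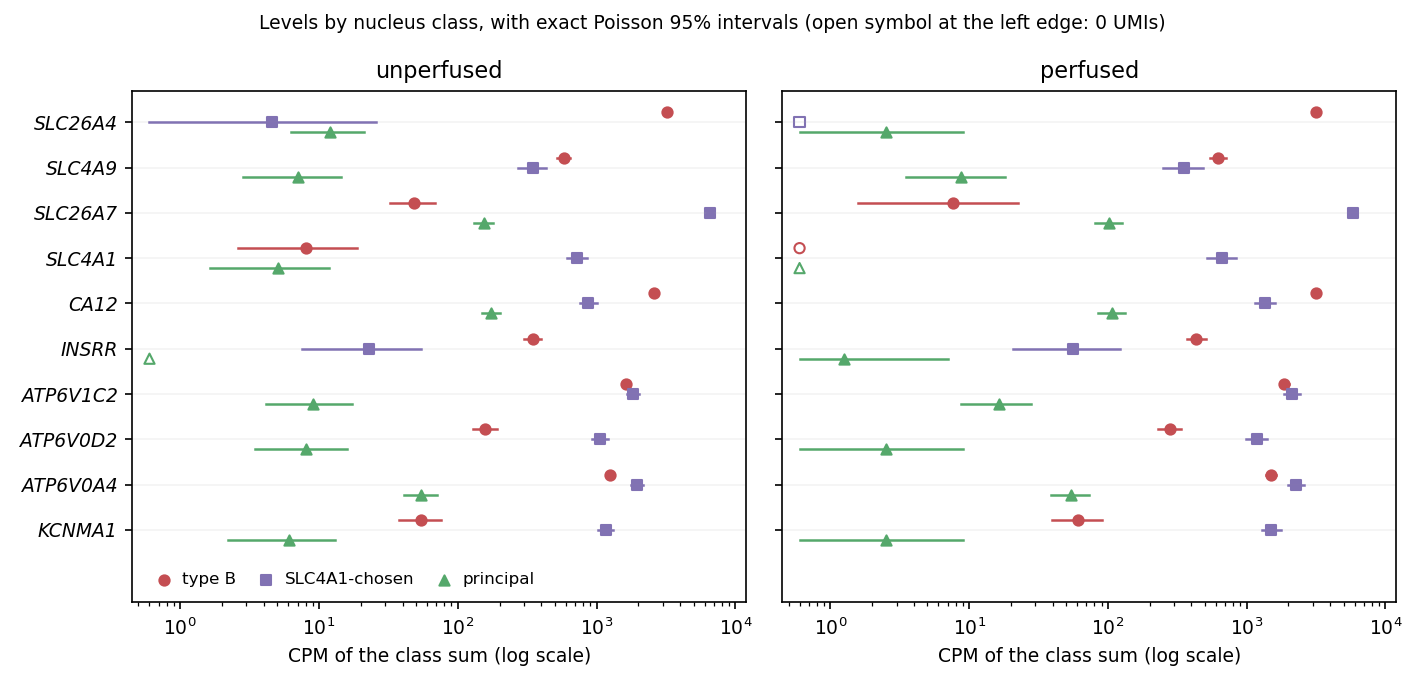
CPM (log axis) of 10 genes summed over type B, SLC4A1-chosen and principal nuclei, with the unperfused library on the left and the perfused on the right, bars for exact Poisson 95% intervals and an open symbol at the left edge for 0 UMIs. Type B nuclei stand highest for SLC4A9, CA12 and INSRR, beside SLC4A1-chosen nuclei for ATP6V1C2, and below them for SLC26A7, ATP6V0D2 and KCNMA1, in both libraries.

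Of 9 measured genes of the proton pump's cytosolic V1 sector, 1 was higher and 0 lower in type B nuclei, and of 6 genes of the membrane V0 sector, 1 was higher and 1 lower, against the 5.47% and 4.09% of all genes. ATP6V1C2 stood at 1619 and 1867 CPM in type B nuclei and at 1843 and 2122 CPM in SLC4A1-chosen nuclei, log2 ratios of -0.19 (-0.36 to -0.02) and -0.18 (-0.40 to 0.04). ATP6V1A, of the catalytic subunit, gave -0.03 (-0.32 to 0.27) and -0.41 (-0.82 to 0.01), and ATP6V1B1 gave -0.27 (-0.56 to 0.03) and 0.01 (-0.44 to 0.48). The subunits that differed were alternative forms of the same position. ATP6V0D2 was lower, at 157 against 1058 CPM and 279 against 1178 CPM, log2 ratios of -2.75 (-3.11 to -2.40) and -2.08 (-2.46 to -1.70), while its counterpart ATP6V0D1 was higher, at 107 against 41.6 CPM, 1.37 (0.36 to 2.56), and 74.2 against 18.7 CPM, 1.99 (0.0049 to 5.10), the latter comparator from 2 UMIs in 1 nucleus. Against the 5-marker type A group ATP6V0D1 gave 1.23 (0.76 to 1.69) and 0.67 (-0.01 to 1.31). ATP6V1C1, the counterpart of ATP6V1C2, was also higher, at log2 ratios of 1.36 (0.70 to 2.09) and 1.07 (0.19 to 2.07).

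Among carriers of anions, bicarbonate and ammonia, SLC26A7 and CA12 were called beside the genes that chose the nuclei. SLC26A7, a chloride/bicarbonate exchanger of type A cells, stood at 48.1 CPM (32.5 to 68.7) in unperfused and 7.67 CPM (1.58 to 22.4) in perfused type B nuclei, against 6590 and 5786 CPM, log2 ratios of -7.10 (-7.67 to -6.58) and -9.56 (-11.84 to -8.01), the latter from 3 UMIs. It had a UMI in 12.6% and 6.67% of type B nuclei, against the 9.56% and 4.25% of proximal tubule nuclei. CA12, a membrane carbonic anhydrase, was higher in type B nuclei, at 2609 against 873 CPM and 3176 against 1355 CPM, log2 ratios of 1.58 (1.36 to 1.80) and 1.23 (0.98 to 1.49). CA2, the cytosolic carbonic anhydrase, differed little, at -0.14 (-0.56 to 0.30) and -0.18 (-0.77 to 0.45).

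SLC4A9 was not confined to type B nuclei. It stood at 579 CPM (521 to 642) and 624 CPM (548 to 707) in type B nuclei and at 346 CPM (272 to 434) and 355 CPM (251 to 488) in SLC4A1-chosen nuclei, log2 ratios of 0.74 (0.38 to 1.12) and 0.81 (0.32 to 1.35). Its level in principal nuclei was 7.04 and 8.78 CPM. The ammonia channel genes leaned the other way, with RHCG at -1.73 (-2.26 to -1.21) and -0.87 (-1.54 to -0.17) and RHBG at -0.99 (-1.38 to -0.59) and -0.41 (-0.96 to 0.15). In all, 2 of 11 genes of this list were higher and 2 lower, against 5.47% and 4.09% of all genes, and without SLC26A4 and SLC4A1, which chose the nuclei, 1 was higher and 1 lower.

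Among cation transport genes, KCNMA1, the pore of the large-conductance potassium channel, stood at 54.5 CPM (37.8 to 76.2) and 61.4 CPM (39.3 to 91.3) in type B nuclei and at 1168 and 1505 CPM in SLC4A1-chosen nuclei, log2 ratios of -4.42 (-4.98 to -3.90) and -4.62 (-5.30 to -3.99). No gene of this list was higher past 2-fold in both libraries, where 5.47% of all genes were higher and 4.09% lower.

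Receptors and cyclic nucleotide enzymes split by type, with 2 of 12 higher and 3 lower, against 5.47% and 4.09% of all genes. The insulin receptor family divided: INSRR, the alkali-sensing member, stood at 347 and 435 CPM in type B nuclei against 23.1 and 56.1 CPM, log2 ratios of 3.91 (2.66 to 5.54) and 2.95 (1.80 to 4.42). INSR, the insulin receptor, stood at 89.8 and 51.1 CPM against 374 and 393 CPM, log2 ratios of -2.06 (-2.58 to -1.55) and -2.94 (-3.79 to -2.14). The phosphodiesterases divided as well. PDE4D was higher, at 2.28 (1.97 to 2.60) and 2.03 (1.60 to 2.50), and PDE1C lower, at -1.85 (-2.01 to -1.70) and -1.57 (-1.76 to -1.38). The adhesion receptor gene ADGRF5 stood at 62.6 and 105 CPM against 6646 and 7955 CPM, log2 ratios of -6.73 (-7.23 to -6.27) and -6.25 (-6.73 to -5.79). PTGER3, a prostaglandin E receptor, gave 0.92 (0.60 to 1.26) and 1.13 (0.68 to 1.61), and the mineralocorticoid receptor NR3C2 gave 0.06 (-0.14 to 0.26) and 0.22 (-0.04 to 0.48).

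Of 9 transcription factor genes measured, HMX2 alone was called, a share near the 5.47% and 4.09% of all genes. It stood at 149 against 4.62 CPM in the unperfused library, 5.01 (2.50 to 10.33) from 1 UMI in SLC4A1-chosen nuclei, and at least 1.83 log2 units higher in the perfused library, where no SLC4A1-chosen nucleus held a UMI. TFCP2L1 gave -0.25 (-0.47 to -0.03) and -0.38 (-0.63 to -0.11), and PPARGC1A, a coactivator of mitochondrial genes, -0.11 (-0.32 to 0.10) and -0.19 (-0.44 to 0.07). ESRRG, a nuclear receptor, stood at 1744 and 2946 CPM against 3847 and 4964 CPM, log2 ratios of -1.14 (-1.27 to -1.01) and -0.75 (-0.90 to -0.60). FOXI1, the master factor of intercalated cells, was thinly counted, at 52.9 and 33.2 CPM in type B and 106 and 56.1 CPM in SLC4A1-chosen nuclei.

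Outside these lists, KAZN and UNC13C had the widest gaps on the higher side. KAZN stood at 15603 against 27.7 CPM and 22867 against 65.4 CPM, and UNC13C at 3024 against 4.62 CPM and 3306 against 9.35 CPM, log2 ratios of 9.35 (6.87 to 14.66) and 8.47 (5.99 to 13.77) that rest on 1 UMI in each group of SLC4A1-chosen nuclei. NYAP2 and TLDC2 had no UMI in any SLC4A1-chosen nucleus, and were at least 4.69 and 5.04 log2 units higher in unperfused and at least 4.11 and 3.88 log2 units higher in perfused type B nuclei. ENPP2, the secreted lysophospholipase autotaxin, FBXL7, DAPK1 and CHST11 were also higher, FBXL7 at 4144 against 180 CPM and 5254 against 280 CPM.

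Lower in type B nuclei were ADGRF1, a second adhesion receptor gene, at 72.2 against 2526 CPM and 10.2 against 2973 CPM, and BCAT1, a branched-chain aminotransferase, at 11.2 against 739 CPM and 10.2 against 907 CPM. STK39, the kinase SPAK that acts on salt cotransporters, stood at 32.1 against 868 CPM and 5.11 against 785 CPM. TOX3, CCBE1, SLC22A15, DMD (dystrophin) and NPNT (nephronectin) were lower too, with log2 ratios between -5.57 and -3.02. KIT was present in both types but lower in type B nuclei, at -1.98 (-2.20 to -1.76) and -1.66 (-1.96 to -1.36).

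**Figure D3:**
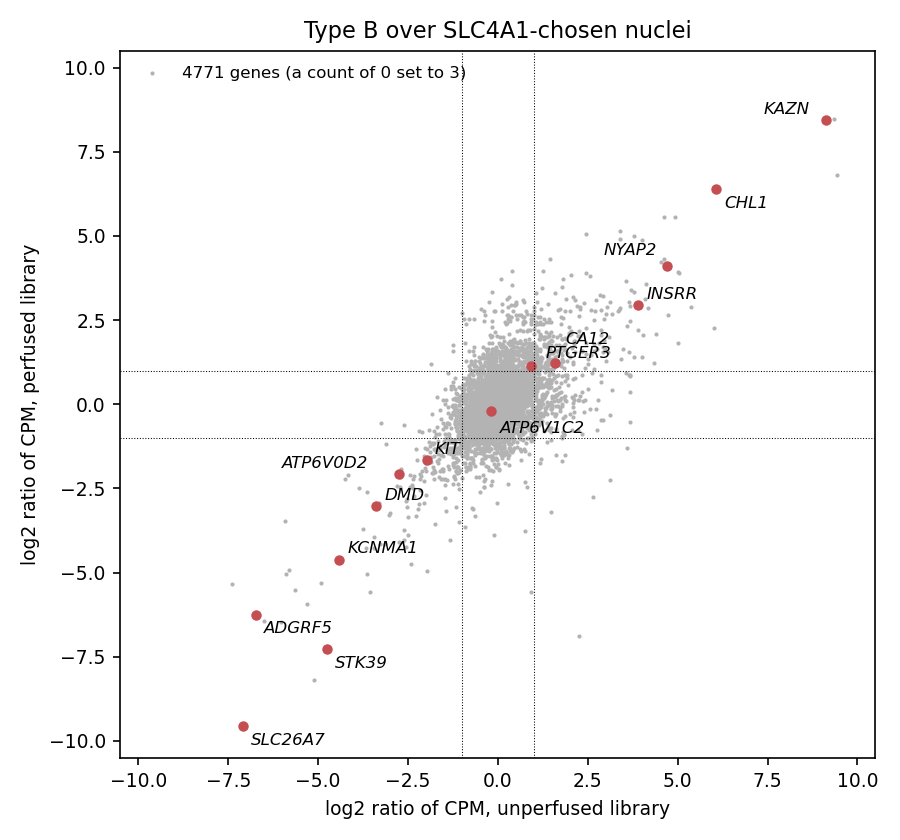
Log2 ratio of type B over SLC4A1-chosen nuclei before perfusion (horizontal) and after it (vertical) for 4771 genes, each a point, with dotted lines at 2-fold and sums of 0 UMIs set to 3. SLC26A7 and ADGRF5 lie at the lower left, KAZN and CHL1 at the upper right, and ATP6V1C2 near 0 in both.

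Principal nuclei, 222 unperfused and 131 perfused with AQP2 and AQP3 at 5 or more UMIs per 10000, lie beside the type B cells in the tubule, and differ from them in the proton pump. Of 7490 genes, 564 (7.53%) were higher and 689 (9.2%) lower in type B nuclei past 2-fold in both libraries. In the V1 sector 8 of 10 genes were higher, and in the V0 sector 5 of 8, with 0 lower in either. ATP6V1C2 led with log2 ratios of 7.48 (6.55 to 8.62) and 6.84 (6.06 to 7.76), and ATP6V0A4 stood at 1251 and 1506 CPM against 54.3 and 53.9 CPM. ATP6V1B2, the widely used form of the B subunit, gave 0.04 (-0.85 to 0.90) and -0.11 (-1.35 to 1.03). ATP6V0A1, the widely used form of the a subunit, gave -1.10 (-1.58 to -0.64) and -0.75 (-1.46 to -0.10). The latter is short of 2-fold, so ATP6V0A1 was not called.

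Against principal nuclei, 5 of 14 genes for anion, bicarbonate and ammonia transport were higher and 4 lower, 1 of 11 for cation transport higher and 3 lower, and 6 of 12 receptors and sensors higher and 2 lower, against 7.53% and 9.2% of all genes. CA12 was higher at 3.91 (3.68 to 4.14) and 4.90 (4.58 to 5.23), and RHBG at 2.72 (2.15 to 3.32) and 3.60 (2.87 to 4.41). SCTR, the secretin receptor, had 57 UMIs in unperfused type B nuclei against 1 in principal nuclei, or 91.4 against 1.01 CPM and 6.51 (3.97 to 11.84) in log2, and stood at 138 against 5.02 CPM in the perfused library, 4.78 (3.34 to 6.71). The glucocorticoid receptor NR3C1 was higher, at 3.21 (2.65 to 3.82) and 4.57 (3.75 to 5.51), while the mineralocorticoid receptor NR3C2 gave -0.68 (-0.80 to -0.57) and -0.70 (-0.83 to -0.57), short of 2-fold. The sodium channel genes SCNN1B and SCNN1G were lower, at -4.44 and -5.09 and at -4.98 and -4.22. Outside the lists, CACNA2D3 (9.25 and 9.35, each from 1 UMI in principal nuclei), TLDC2, NYAP2, ENPP2, TLE4, ZNF385C, JAKMIP3 and KAZN were the furthest above. ATP10B, ADAMTS16, SPATA16, HS3ST3A1, SAMD5, SLC9A4, PKHD1 and ACOXL were the furthest below.

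Of 14 genes of the list of transcription factors and lateral inhibition, 2 (HMX2 and ESRRG) were higher in type B than in principal nuclei and 7 lower, against 7.53% and 9.2% of all genes. HES1, a Notch target, was lower in type B nuclei, at 35.3 against 279 CPM and 15.3 against 206 CPM, and the receptor NOTCH2 at 35.3 against 156 CPM and 30.7 against 142 CPM. The ligand DLL1 was counted with 21 and 10 UMIs in type B nuclei and 2 and 2 in principal nuclei, at 33.7 against 2.01 CPM and 25.6 against 2.51 CPM, log2 ratios of 4.07 (2.03 to 7.20) and 3.35 (1.12 to 6.58). Another ligand, JAG1, was lower, at -1.50 (-2.27 to -0.78) and -1.24 (-2.38 to -0.23). Immediate early genes were lower in 6 of 9 cases and higher in 0, against 9.2% and 7.53% of all genes. JUN stood at 83.4 against 360 CPM and 48.6 against 594 CPM, and ATF3 at 43.3 against 508 CPM and 74.2 against 490 CPM.

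Between the libraries, SLC4A9, CA12, INSRR and the proton pump genes differed by less than 2-fold, and mitochondrially encoded transcripts had the lowest median of the gene lists. Of 7477 genes with at least 20 UMIs over both sums, 150 (2.01%) were higher and 719 (9.62%) lower past 2-fold in the perfused members, and the median log2 ratio over all 7477 was -0.06. Without the members that lacked both SLC4A9 and ATP6V1C2, 153 were higher and 638 lower. Of the 10 V1 and 8 V0 genes of the proton pump measured, 0 were higher and 0 lower past 2-fold, with medians of -0.09 and 0.10. SLC4A9 gave 0.11 (-0.13 to 0.35), ATP6V1C2 0.21 (0.07 to 0.34), CA12 0.28 (0.18 to 0.39) and INSRR 0.33 (0.03 to 0.62). The largest ratio in the pump was that of ATP6V0D2, at 157 CPM in unperfused and 279 CPM in perfused members, 0.83 (0.42 to 1.23), while ATP6V1A gave -0.36 (-0.62 to -0.10).

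**Figure D4:**
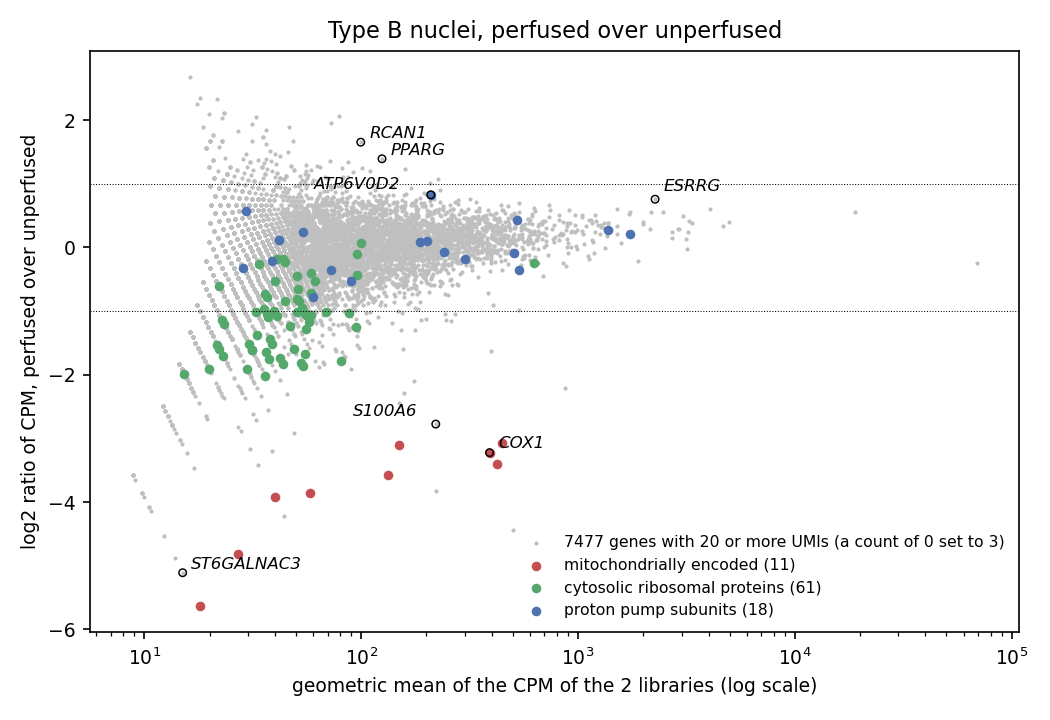
Log2 ratio of perfused over unperfused type B nuclei (vertical) against the geometric mean of the CPM of both libraries (horizontal, log axis) for 7477 genes, with dotted lines at 2-fold, the 11 mitochondrially encoded genes in red, the 61 cytosolic ribosomal protein genes in green and the 18 proton pump genes in blue. The proton pump genes lie within 2-fold, the mitochondrial genes all lie below it, and 38 of the ribosomal genes do.

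Of 15 transcription factor genes measured 6 had ratios above 0, with a median of -0.20, and 0 were higher and 2 lower past 2-fold, near the 2.01% and 9.62% of all genes. The 2 were ESRRB, with 22 UMIs in 7 unperfused members and 2 UMIs in 2 perfused members, and HES1, with 22 and 6 UMIs. FOXI1 stood at 52.9 and 33.2 CPM, -0.67 (-1.72 to 0.29). ESRRG stood at 1744 CPM before and 2946 CPM after perfusion, 0.76 (0.64 to 0.88). KAZN, of the 15 genes highest over all other nuclei, stood at 15603 and 22867 CPM, 0.55 (0.51 to 0.59). NR3C1 gave 0.47 (0.14 to 0.79), NR3C2 0.33 (0.18 to 0.48) and TFCP2L1 0.33 (0.16 to 0.51). KCNK2, another of the 15, was lower in the perfused members, at 295 and 136 CPM, -1.12 (-1.59 to -0.68), and HMX2 stood at 149 and 99.7 CPM, -0.58 (-1.16 to -0.03). BDNF, rare in both, was higher, with 14 UMIs in 9 and 25 UMIs in 16 members, 1.51 (0.51 to 2.57).

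Some transport and receptor genes were lower past 2-fold, most of them with few UMIs. In the anion list these were 3 of 11, against 9.62% of all genes, SLC4A2 with 26 and 5 UMIs, SLC4A4 with 70 and 18 UMIs and SLC26A7 with 30 and 3 UMIs, and in the cation list 1 of 8, KCNJ16. In the receptor list they were 3 of 14: EDNRB, AVPR1A and HSD11B2, the enzyme that inactivates cortisol, which stood at 119 CPM in unperfused and 46.0 CPM in perfused members, -1.37 (-2.20 to -0.61). No gene of these 3 lists was higher past 2-fold, against 2.01% of all genes. SCNN1G, a principal cell marker, was higher at 25 against 19 UMIs, but all 25 came from 1 perfused member.

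Of 11 heat shock genes measured 0 were higher and 4 lower past 2-fold, against 2.01% and 9.62% of all genes, with a median of -0.61, HSPA8 at 97.9 and 35.8 CPM and DNAJB1 at 168 and 56.3 CPM. DNAJB1 came from 26 unperfused and 5 perfused members. Of 6 immediate early genes 0 were higher and 1 (DUSP1) lower, of 7 hypoxia and glycolysis genes 0 and 0, and of 2 NF-kB genes 0 and 0. Only 2 genes of the tubule injury list were measured. CLU was higher, at 24.1 and 61.4 CPM, 1.35 (0.36 to 2.39), from 15 UMIs in 12 and 24 UMIs in 10 members, and SPP1 gave -0.52 (-1.54 to 0.43). In the perfused library CLU stood lower in SLC4A1-chosen nuclei, at 148 and 93.5 CPM, and in principal nuclei, at 16.1 and 6.27 CPM.

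Targets of MRTF and SRF, transcription factors that respond to actin and to mechanical load, were part of the study's question. Of 13 measured in type B nuclei, 0 were higher and 4 lower past 2-fold in the perfused members, against 2.01% and 9.62% of all genes, with a median of -0.26 against -0.06 over all genes. VCL, vinculin, gave 0.55 (0.08 to 1.01), ACTG1 -0.26 (-0.83 to 0.29) and MYH9 -0.07 (-0.52 to 0.36). The lower ones were FHL2, THBS1, TPM4 and FLNA, and FHL2, which is also a stromal marker, had 84 UMIs in 13 unperfused members and 7 in 6 perfused ones. Of these 13, 2 were among the 7 members with neither SLC4A9 nor ATP6V1C2, whose stromal markers summed to 2239 CPM. The median of the list was 1.04 in the KIT-led type A group, which holds stromal RNA, and -0.44 over 6 genes in SLC4A1-chosen nuclei.

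Mitochondrially encoded transcripts differed most among the lists. All 11 measured were lower past 2-fold, against 9.62% of all genes, with a median log2 ratio of -3.58, and the list summed to 5604 CPM before and 537 CPM after perfusion, -3.38 (-3.59 to -3.18). COX1 stood at 1194 and 128 CPM, COX3 at 1383 and 130 CPM, and ND2 had 76 UMIs in unperfused and 0 in perfused members. The median of the list was -1.44 over 8 genes in SLC4A1-chosen nuclei, -1.09 over 11 genes in principal nuclei and 0.84 over 12 genes in the KIT-led type A group. This RNA was concentrated in a few nuclei. Of 3493 mitochondrial UMIs, 1886 came from 3 unperfused members with 8.93% to 14.0% of their UMIs from mitochondria, and the perfused members reached 0.225% at most. Without the 3, the unperfused share was 0.264% of UMIs in place of 0.560%, against 0.0537% in the perfused members. Among members at or under 1%, 82 unperfused and all 45 perfused, the shares were 0.0878% and 0.0537%, and the medians per member over all nuclei were 0.0682% and 0.0432%, so that the bulk of the nuclei differed far less than the sums.

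Cytosolic ribosomal protein genes were lower past 2-fold in 38 of 61 cases and higher in 0, against 9.62% and 2.01% of all genes, with a median of -1.06. They summed to 4874 and 2629 CPM, or 0.487% and 0.263% of UMIs. Their medians per member were 0.395% and 0.273%, and members at or under 1% mitochondrial RNA held 0.395% and 0.263%. The same list gave a median of 0.11 over 43 genes in SLC4A1-chosen nuclei and -0.68 over 67 genes in principal nuclei. In the KIT-led type A group it gave 0.67 over 69 genes. The share of cytoplasmic RNA that stays with a nucleus varies with its isolation, and its part in these differences was not tested.

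**Figure D5:**
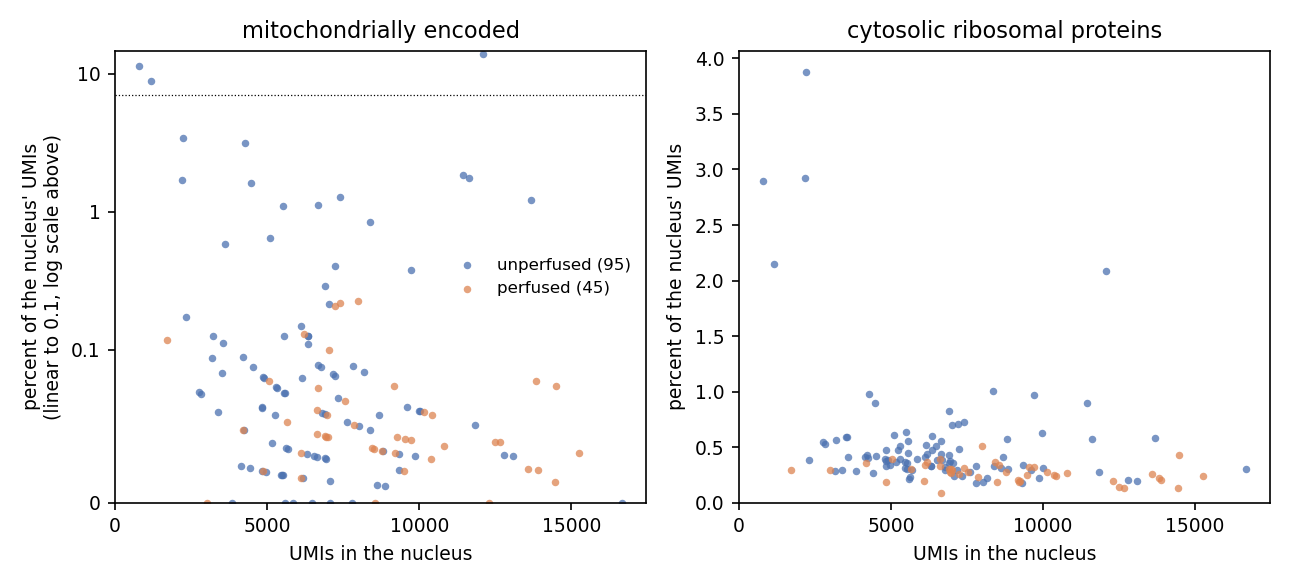
Percent of a nucleus' UMIs from mitochondrially encoded genes and from cytosolic ribosomal protein genes against the UMIs of that nucleus, for each of the 95 unperfused and 45 perfused type B nuclei, with a dotted line at 7%. The 3 unperfused nuclei above the line hold 1886 of the 3493 unperfused mitochondrial UMIs, and no perfused nucleus exceeds 0.225%.

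Among well-counted genes outside the lists (50 UMIs or more in 1 library), the highest ratio in the perfused members was that of RCAN1. The rule for these genes asked for UMIs in at least 10 members with no more than 25% from 1 member. RCAN1, an inhibitor of the phosphatase calcineurin, had 35 UMIs in 23 unperfused members and 69 UMIs in 22 perfused members, 56.1 and 176 CPM, 1.65 (1.04 to 2.28). In SLC4A1-chosen nuclei it gave 0.25 (-0.71 to 1.16), in principal nuclei 0.15 (-0.32 to 0.62) and in the 5-marker type A group 0.46 (0.19 to 0.73). PPARG, a nuclear receptor of lipid metabolism, had 48 UMIs in 28 and 79 UMIs in 28 members, 77.0 and 202 CPM, 1.39 (0.86 to 1.94), against 0.57 (0.20 to 0.95) in principal nuclei. SESN1, a sestrin induced by p53, had 97 UMIs in 48 and 128 UMIs in 37 members, 156 and 327 CPM, 1.07 (0.68 to 1.47), against -0.20 (-0.94 to 0.50) in SLC4A1-chosen and 0.10 (-0.15 to 0.35) in principal nuclei. GFOD1, FRY, LRRIQ3, DIPK1A, SPATA17 and HACD3 were also higher past 2-fold, with log2 ratios of 1.01 to 1.34, and some of these were higher in the other classes too. GFOD1 gave 1.47 (0.27 to 2.79) and DIPK1A 1.13 (0.66 to 1.61) in principal nuclei, and 1.75 (-0.61 to 4.44) was the ratio of DIPK1A in SLC4A1-chosen nuclei, where LRRIQ3 gave 1.12 (-0.07 to 2.33). Of the remaining genes, CFAP94, MOSMO and PTAR1 lay just under 2-fold. CFAP94 gave 0.99 (0.45 to 1.55) in type B and -0.52 (-0.96 to -0.08) in principal nuclei. None of these differences between classes was tested.

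The lowest ratios were larger, and several were shared by the other collecting duct nuclei. S100A6, a calcium-binding protein, had 360 UMIs in 73 unperfused and 33 UMIs in 21 perfused members, 578 and 84.4 CPM, -2.77 (-3.34 to -2.26), and gave -1.66 (-2.94 to -0.57) in SLC4A1-chosen but 0.12 (-0.15 to 0.38) in principal nuclei. The heat shock gene HSP70.2 stood at 350 and 71.6 CPM, -2.29 (-2.91 to -1.72), from 44 and 8 members, and gave -2.21 and -1.02 in those classes. WFDC2, a secreted protease inhibitor, stood at 363 and 84.4 CPM, -2.10 (-2.68 to -1.57), and gave -1.02 and -1.43. The ribosomal RNA gene RN18S stood at 347 and 63.9 CPM, -2.44 (-3.10 to -1.84), and gave -2.20 and -2.14. ND5, COX1, RPL34, RPS12 and RPL6 belonged to the mitochondrial and ribosomal groups described above.

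ST6GALNAC3, a sialyltransferase gene, stood on opposite sides in type B and SLC4A1-chosen nuclei. It had 55 UMIs in 16 of 95 unperfused members and 1 UMI in 1 of 45 perfused members, 88.2 CPM (66.5 to 115) and 2.56 CPM (0.0647 to 14.2), -5.11 (-10.44 to -2.57). In SLC4A1-chosen nuclei it stood at 18.5 and 299 CPM, from 3 and 4 nuclei, 4.02 (2.52 to 5.98), and at 67.3 and 110 CPM in principal nuclei, 0.71 (0.24 to 1.19). Proximal tubule nuclei held 124 and 125 CPM of it, in 30.7% and 28.5% of nuclei, so the perfused type B nuclei stood below that class.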

How the data were processed

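Nuclei of 1 unperfused and 1 perfused piece of pig renal cortex had been profiled with 10x Genomics 3' chemistry. The authors ran Cell Ranger 5.0.1 (submitters' processing notes) against an Ensembl pig annotation, introns included, and deposited whole-number UMI counts per gene and barcode. Their later filters (SoupX, a 7% mitochondrial limit, Scrublet) are not in the deposited counts. The study's clusters were not used. Members, comparators and gene lists were chosen with earlier results of these data known.

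Counts were summed over the nuclei of a class and library and scaled to CPM (Python 3.11.15, numpy 2.4.6, scipy 1.17.1, pandas 2.3.3). The 95% intervals are exact Poisson (levels), binomial conditional on the summed UMIs (ratios) and Clopper-Pearson (shares). A sum of 0 was set to 3 UMIs in ratios. Genes needed 20 UMIs over the 2 sums, and past 2-fold counted as called. Named genes were those of the fixed lists, the 15 highest over all other nuclei, the 12 largest ratios each way against each comparator and between libraries, and the 10 most like SLC26A4; between libraries they also needed 50 UMIs in 10 members with no member above 25%. KCNK2 and BDNF between libraries were named after their values were seen. Code was tested on simulated data. Symbols came from the deposited files for 16554 of 31908 genes and from a name table for 822. ATP6V0C, HSPA1A and others without a symbol in these sources were not analysed here, and a few measured genes are not reported here. No sequence, genome or coordinates were used. Alternatives used scanpy 1.11.5 (Scrublet), edgeR 4.0.16 (TMM) and DESeq2 1.42.0 (size factors) under R 4.3.3, for scaling only.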

Additional observations from a re-analysis of the deposited data

Results flagged for a closer look

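ST6GALNAC3 was singled out because its log2 ratio of perfused over unperfused type B nuclei, -5.11, had the opposite sign to that in SLC4A1-chosen nuclei, 4.02 (2.52 to 5.98), and the difference between the classes was not tested. Without the member with most UMIs of the gene in each library the perfused sum was 0, which gives a bound of -3.17, and it was -3.85 without doublets and members over 7% mitochondrial RNA. In the perfused library, 1 barcode with over 6000 genes met the rest of the rule for type B nuclei and lies outside every comparison, against 0 in the unperfused library.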

How the results depend on the processing

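No paired analysis was possible because there is 1 library per condition and the labels carry no replicate numbers. Leaving out a replicate was not possible for the same reason. The shares of 1.35% (unperfused) and 0.760% (perfused) became 1.07% (unperfused) with SLC26A4 at 10 per 10000 and 4 UMIs, 0.199% and 0.0845% without members that held any type A marker UMI (KIT in nearly all), and 0.864% and 0.484% with nuclei thinned to 1000 UMIs. Thinned to 3000 UMIs, an alternative chosen after seeing the data, they were 1.85% and 1.05%. The unperfused share was the higher under every alternative run. The number of genes that met the UMI minimum also differed between settings, so the counts of genes that follow cannot be compared as shares. Genes higher past 2-fold in perfused members, 150, became 47 thinned to 1000 UMIs, 93 without the member with most UMIs of the gene, 598 with a minimum of 1 UMI and 7 with 100 UMIs. Genes lower, 719, became 128 without type A marker members, 56 and 299 thinned to 1000 and 3000 UMIs, 2012 at 1 UMI and 53 at 100 UMIs. The mitochondrial median of -3.58 became -2.37 without doublets and members over 7% mitochondrial RNA, -2.50 thinned to 3000 UMIs, -2.64 without the richest member and, chosen after seeing the data, -2.66 without only the members over 7%. Without type A marker members (14 and 5 left) the anion list went from 0.03 to 0.74 and the transcription factors from -0.20 to 0.69, and at 1 UMI the receptors went from 0.27 to -0.14. Against the 5-marker type A group, the 267 genes higher became 1110 without type A marker members, 69 thinned to 1000 UMIs, 501 at 1 UMI and 124 at 100 UMIs, and the 739 lower became 230, 176 and, at 100 UMIs, 284, then 195 with SLC4A1 alone and, chosen after seeing the data, 297 with SLC4A1, AQP6 and DMRT2. As shares, the 739 were 7.52% of 9829 genes and the 195 with SLC4A1 alone 4.09% of 4771 genes. For single named genes, 272 values between libraries stayed within their counting intervals and 15 moved, and 205 and 71 did so against type A; none of these reversed. TMM and DESeq2 factors shifted the ratios between libraries by 0.05 and 0.06, and those against type A by up to 0.12. Scrublet marked 12 of 95 and 2 of 45 members as doublets. Over all nuclei tested it marked 641 of 7030 (9.12%) in the unperfused and 489 of 5910 (8.27%) in the perfused library. The sums over SLC4A1-chosen nuclei were the smallest compared, 216535 and 106980 UMIs, and their depth limits the ratios against them.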
